A study of Mus musculus with 8 samples.

Results

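The c-Src-deficient mammary tumor line m4447 held almost no RNA of 41 genes that were expressed in the other c-Src-deficient line, m9327, and in both lines with intact c-Src, m5567 and m8905. The genes were selected on the deposited values themselves: under 0.1 FPKM in both libraries of m4447 and reaching 1 FPKM in every one of the 6 libraries of the other lines. FPKM is the number of reads on a gene scaled to the length of the gene and to the total of the library. The 41 genes were chosen by this rule from 39993 listed, and they made up 0.397% of the 10336 genes that reached 1 FPKM in the same 6 libraries, here called expressed genes. Their low level in m4447 is therefore a description, and comparisons were tested only among the 3 lines in which they were expressed.

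ErbB2 is a receptor tyrosine kinase of the epidermal growth factor receptor family, and its overexpression drives a subset of human breast cancers. c-Src is a cytoplasmic tyrosine kinase that acts below ErbB2 and other receptors in signals for growth, adhesion and migration. Conditional deletion uses Cre recombinase to cut out a gene segment that lies between LoxP sites, so that the gene is lost in cells that make Cre. A line grown from a tumor carries the engineered alleles and also whatever else that tumor acquired, which is why lines of 1 genotype are compared with each other as well as with lines of another.

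RNA-seq was carried out on 4 mouse lines, each established from a separate mammary tumor, with 2 biological duplicates per line and 8 libraries in all. All lines carried the MMTV-NIC transgene, in which the mouse mammary tumor virus promoter drives activated ErbB2 and Cre from 1 transcript in mammary epithelium of FVB/N mice, so the WT lines made Cre too. The WT lines m5567 and m8905 were MMTV-NIC/c-Src WT/WT, and the cSrcKO lines m4447 and m9327 were MMTV-NIC/c-Src LoxP/LoxP. Cells were used between passages 10 and 15 in medium with serum, EGF, hydrocortisone, insulin and pituitary extract. Library totals, solved from the steps between FPKM values, were 15231180 and 15808372 reads for m5567, 17773742 and 14069716 for m8905, 16533393 and 17253236 for m4447, and 17090276 and 14956966 for m9327. They were close to the reads summed over genes, 15223772 in the first m5567 library. They thus stand for reads counted on genes and not for all reads sequenced. By these totals, depth in m4447 lay within the range of the other lines. The number of genes that reached 1 FPKM was 11149 and 11131 in the m4447 libraries and between 11340 and 11539 in the other 6.

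The files do not pair their identifiers with gene names, and 0 of the 39993 identifiers occurred in the reference tables used. The Src and Erbb2 genes and the markers of mammary and other cell types were therefore not analysed here, and the function of the members cannot be described. Members are given by their rank in median FPKM over the 6 libraries outside m4447, and 4 of them by identifier. The RNA is that of whole cultures, in which fewer cells that express a gene and less RNA per cell cannot be told apart.

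The reads show how close to 0 the members were in m4447. All 41 members together had 36 reads in the first m4447 library and 59 in the second. The same genes had 11163 and 11860 reads in m5567, 18476 and 13940 in m8905, and 5042 and 4521 in m9327. In FPKM the members summed to 1.27 and 1.66 in m4447, 506 and 522 in m5567, 598 and 584 in m8905, and 175 and 183 in m9327. The rule itself set the m4447 sum apart from all others, but it did not fix the order of the other lines, among which the m9327 sums were well below those of both WT lines. The most abundant member of each library made up 16.3% and 16.0% of that sum in m5567, 28.1% and 28.4% in m8905, and 11.8% in both m9327 libraries. The sums thus did not rest on 1 gene, but a few abundant members weighed heavily in them. Ranks 1 and 2 by median FPKM held 114.5 and 168.0 of the 598 FPKM in the first m8905 library. In the first m9327 library they held 12.3 and 7.54 of 175.

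In m4447, 10 members had 0 reads in both libraries, and another 26 had 1 to 3 reads in their higher library. The other 5 members had between 4 and 8 reads there. Pooled over duplicates and set against the pooled WT libraries, the 31 members with any read in m4447 were between 30.5 and 4070 times lower there, with a median of 159. For the 10 members at 0, a floor of 3 reads over both m4447 libraries gave lower bounds, from at least 3.40-fold to at least 389-fold lower. With these 10 at their bounds the median over the 41 members was 128. These ratios describe the choice of the genes, and intervals and floors given for them cover counting error only, since PCR reads without molecular identifiers are not independent molecules.

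**Figure D1:**
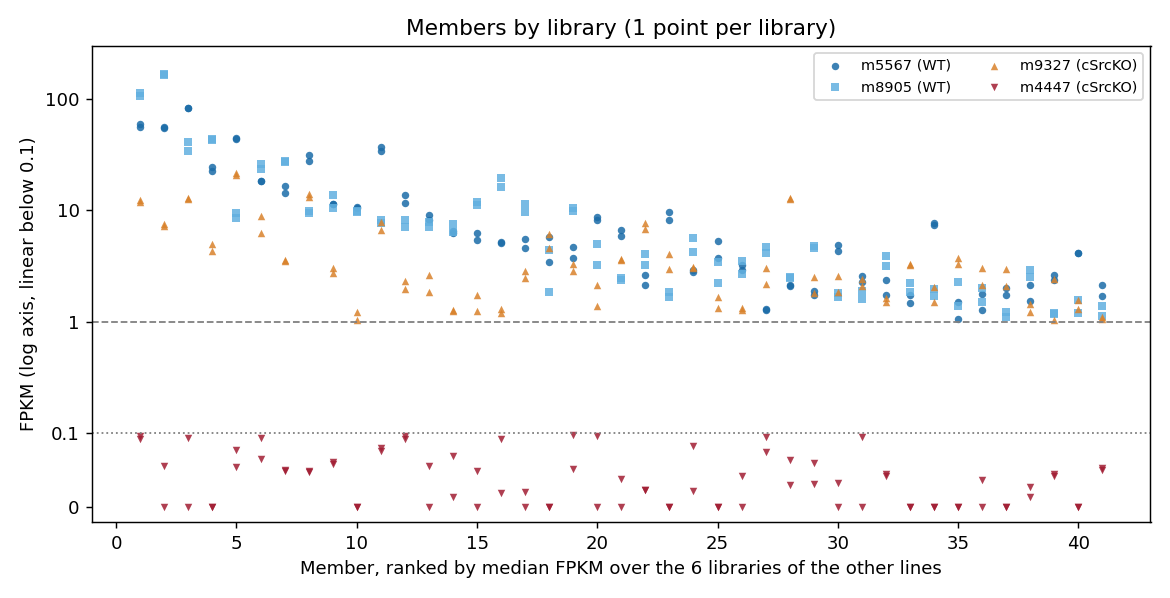
FPKM of the 41 members in each of the 8 libraries, on a log axis that is linear below 0.1, with members ranked by median FPKM over the 6 libraries outside m4447. Each point is 1 library, the dotted and dashed lines mark the limits of 0.1 and 1 FPKM, and the m9327 triangles lie below the WT points for most members at the left and among or above them for many at the right.

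The limits of the rule passed through a continuous range of values. Just inside the m4447 limit, 1 member had 0.0510 and 0.0978 FPKM in m4447, and 3.71, 4.67, 10.5 and 9.84 FPKM in the WT libraries. Just outside it, 1 gene had 0.0486 and 0.109 FPKM in m4447 and 27.8, 30.9, 2.26 and 2.19 in the WT libraries, and the next had 0.114 and 0.109 in m4447. At the other limit, 1 member had 1.03 and 1.23 FPKM in m9327 and between 9.65 and 10.8 in the WT libraries. The nearest gene outside it had 0.976 and 0.996 FPKM in m9327 and between 3.29 and 6.50 in the WT libraries. The genes on either side of a limit were thus close in the value that decided, while their WT levels differed, and at this second limit it was the m9327 value that decided. Of 106 genes at 1 FPKM or more in all 4 WT libraries and under 0.1 FPKM in both m4447 libraries, 41 were at 1 FPKM or more in both m9327 libraries and 8 were under 0.1 FPKM in both. The remaining 57 lay between these limits in at least 1 m9327 library.

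The same rule was applied with each other line in the place of m4447, as a count without a test. It found 5 genes for m5567, 2 for m8905 and 0 for m9327. With the limit raised to 0.5 FPKM the counts were 122 genes for m4447, 25 for m5567, 13 for m8905 and 10 for m9327. With a limit of 1 FPKM they were 257, 64, 61 and 47 in the same order. The line m4447 had the highest count at each of the limits tried, although the 4 lines had nearly equal numbers of genes that reached 1 FPKM in all 6 remaining libraries, from 10059 to 10336.

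**Figure D2:**
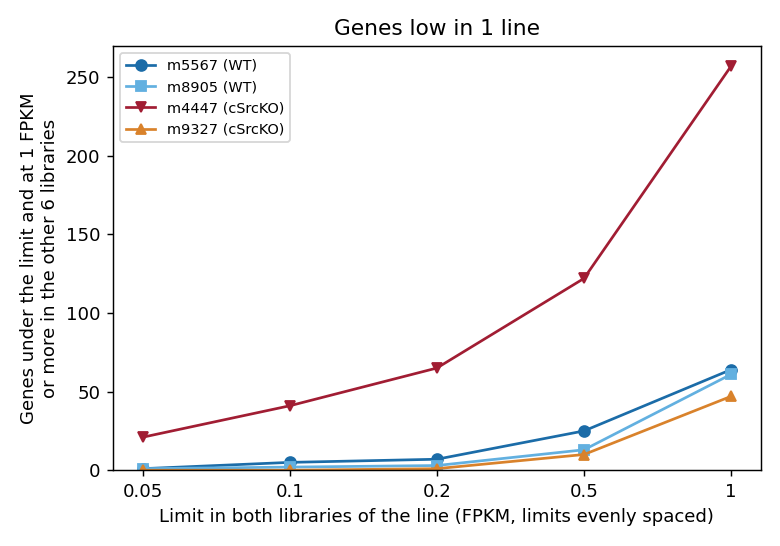
Number of genes under a limit in both libraries of 1 line and reaching 1 FPKM in all 6 remaining libraries, for limits from 0.05 to 1 FPKM, with 1 curve per line. The m4447 curve goes from 21 genes at 0.05 FPKM to 257 at 1 FPKM, and the other lines reach 47 to 64.

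Members were expressed at low to moderate levels where they were present. Their median level over the 6 libraries outside m4447 was 3.65 FPKM, with quartiles of 2.19 and 8.11 and a range from 1.25 to 58.2. The 10336 expressed genes had a median of 15.4 FPKM with quartiles of 6.14 and 44.4, and 13.3% of them lay below the median of the members. Member lengths, solved with the reads, had a median of 1523 bp, against 1743 bp for the expressed genes, and ran from 76 to 5588 bp. A single read already exceeds 0.1 FPKM on a gene shorter than 605 bp in the first m4447 library and 580 bp in the second, so the 3 members below those lengths could enter only with 0 reads. The same 3 members had fewer than 10 reads in at least 1 of the other 6 libraries. The shortest, at 76 bp, rested on 4 and 7 reads in m5567, 6 and 2 in m8905 and 6 and 7 in m9327. Its 0 reads in m4447 gave only a bound of at least 3.40-fold lower.

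Whether the members were as high in m9327 as in the WT lines was asked next, since the rule fixed only that each library reached 1 FPKM. In m9327 most members were below the mean of the WT lines, and a few were higher than in either WT line. All 41 passed the filter on low values, a mean of 0.5 FPKM over the 6 libraries, among 12660 genes tested. By limma on log2(FPKM + 1), 26 of the 41 members (63.4%) were lower in m9327 than in the mean of the WT lines at an adjusted p under 0.05. In that direction 32.7% of all genes tested were called, and 32.8% of the expressed genes. Higher calls were made for 6 members (14.6%), against 25.9% of all genes tested and 24.7% of the expressed genes. The remaining 9 members did not pass the threshold. Because the comparison is with a mean of 2 lines, members that lay between the WT lines can be among those called lower. Rank 8 was such a member, with line means of 29.8 FPKM in m5567, 9.64 in m8905 and 13.7 in m9327.

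The size of the differences followed the same direction. The median log2 fold change of the members in m9327 against the WT lines was -0.53, beside -0.05 over all genes tested and -0.05 over the expressed genes. Fold changes on this scale understate those of low genes because of the added 1 FPKM. On the FPKM scale, the members in m9327 had a median of 52.0% of their WT level, with quartiles of 24.6% and 83.6%, where the expressed genes had a median of 95.5% with quartiles of 76.0% and 119.9%. In m9327, 11 members (26.8%) were under 25% of the WT level, as were 1.25% of the expressed genes. A further 9 members (22.0%) lay between 25% and 50%, as did 4.97% of the expressed genes, and 13 (31.7%) lay between 50% and 100%, as did 49.7%. Between 100% and 200% there were 5 members (12.2%) and 39.6% of the expressed genes. Above 200% there were 3 members (7.32%), against 4.51% of the expressed genes.

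Counts by library gave a like picture. Both m9327 libraries were below all 4 WT libraries for 21 members, where 33.2% of expressed genes showed this, and above all 4 for 6 members, where 25.7% did. For the other 14 members the m9327 libraries were neither all below nor all above the WT libraries. By line means, the order m5567 above m9327 above m8905 held for 8 members (19.5%) and for 11.1% of the expressed genes. The order m8905 above m9327 above m5567 held for 3 members (7.32%) and for 9.09% of the expressed genes. Tested against each WT line on its own, a comparison added after the data were seen, 18 members were lower in m9327 than in m5567 and also lower than in m8905, a pattern called for 21.4% of all genes tested. Only 4 members were higher than in each line, where 17.7% of all genes tested were. The median log2 fold change was -1.03 against m5567 alone and -0.60 against m8905 alone, beside -0.06 and -0.04 over all genes tested.

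These tests compare cell lines. With duplicates averaged so that m9327 stood as 1 line against 2 WT lines, limma called none of the members and none of the genes tested. The median log2 fold change of the members was -0.53 there too. Voom on the solved reads called 26 members lower and 6 higher, and 33.9% and 28.7% of all genes tested.

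**Figure D3:**
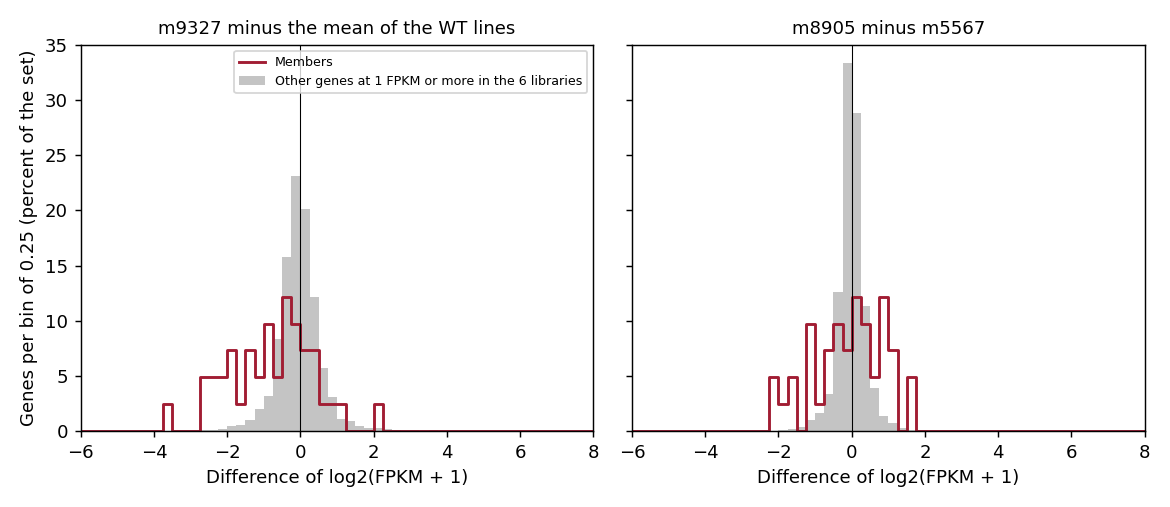
Distribution of differences in log2(FPKM + 1) for the 41 members (line) and the other expressed genes (bars), as percent of each set per bin of 0.25. The left panel shows m9327 minus the mean of the WT lines, where the members have a median of -0.53 and reach -3.54, and the right panel shows m8905 minus m5567, where they spread to both sides of 0 from -2.19 to 1.61.

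The member with the steepest reduction in m9327 was MGP_FVBNJ_G0015735, a gene of 2149 bp at rank 2 in median FPKM. It had 55.0 and 56.6 FPKM in m5567, 168.0 and 165.7 in m8905, 7.54 and 7.28 in m9327, and 0.0563 and 0 in m4447. The lines did not overlap, and their order was m8905, m5567, m9327, m4447. Its log2 fold change in m9327 against the WT lines was -3.54 (SE 0.065, adjusted p = 6.29e-07 by limma), with m9327 at 6.66% of the WT mean and below every WT library in both duplicates. In m4447 it had 2 reads in the first library and 0 in the second, a ratio of WT to m4447 of 4070 with a 95% counting interval from 1126 to 33608. The 2 WT lines differed from each other as well, by 1.56 on the log2 scale (SE 0.075, adjusted p = 5.02e-05 by limma).

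MGP_FVBNJ_G0030785, of 1265 bp and rank 1 in median FPKM, showed the same order of lines. Its values were 59.7 and 56.7 FPKM in m5567, 114.5 and 107.5 in m8905, 12.3 and 12 in m9327, and 0.0956 and 0.0916 in m4447, which is 2 reads in each m4447 library. The duplicates of each line lay close together compared with the distance between lines. Its log2 fold change in m9327 was -2.63 (SE 0.070, adjusted p = 1.21e-06 by limma). The ratio of WT to m4447 was 910, with a 95% counting interval from 355 to 3339. For both of these genes the m9327 libraries were far below every WT library, while the position of m4447 below all of them was set by the rule.

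MGP_FVBNJ_G0030602, of 1913 bp, had the opposite order in m9327. It had 2.09 and 2.15 FPKM in m5567, 2.50 and 2.45 in m8905, 12.6 and 13 in m9327, and 0.0632 and 0.0303 in m4447. The WT lines were close to each other, and both m9327 libraries lay above them. Its log2 fold change in m9327 was 2.07 (SE 0.065, adjusted p = 2.06e-06 by limma), with m9327 at 557% of the WT mean. The difference between the WT lines, 0.16 on the log2 scale, did not pass the threshold (adjusted p = 0.176 by limma). With 2 reads and 1 read in the m4447 libraries, the ratio of WT to m4447 was 49.6, with a 95% counting interval from 16.8 to 242.

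MGP_FVBNJ_G0018829, of 2531 bp, had 2.15 and 2.62 FPKM in m5567, 3.25 and 4.04 in m8905, and 7.72 and 6.87 in m9327. It had 1 read in each m4447 library, a ratio of WT to m4447 of 128 with a 95% counting interval from 35.4 to 1063. Here too both m9327 libraries were above all WT libraries, with a log2 fold change of 1.07 (SE 0.106, adjusted p = 0.000241 by limma). The member with the next identifier number, rank 35 and of 1548 bp, also had both m9327 libraries above all WT libraries, while its WT lines overlapped. It had 1.06 and 1.51 FPKM in m5567, 2.29 and 1.38 in m8905, 3.70 and 3.28 in m9327, and 0 reads in both m4447 libraries. Its log2 fold change in m9327 was 0.83 (SE 0.150, adjusted p = 0.00337 by limma), and it was singled out for its identifier after its values were seen. Whether this pair overlaps in the genome, and whether the reads were counted by strand, is not given in the sources used here, so reads shared between neighboring genes cannot be told apart from RNA of each.

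Among the other members with a high median FPKM, rank 3 had 82.7 and 83.8 FPKM in m5567, 34.0 and 40.8 in m8905, 13.1 and 12.7 in m9327, and a single read in m4447. Rank 4 had 22.4 and 24.3 FPKM in m5567, 43.5 and 42.5 in m8905, 4.30 and 5.04 in m9327, and 0 reads in m4447, at least 389-fold lower than in WT. Both were lower in m9327 than in every WT library, with log2 fold changes of -2.03 (SE 0.090) and -2.53 (SE 0.083) and adjusted p of 7.10e-06 and 2.26e-06 by limma, but they differed in which WT line was higher. Rank 5 was unlike these, with 43.8 and 44.9 FPKM in m5567, 9.40 and 8.55 in m8905, and 20.7 and 21.6 in m9327. Its m9327 libraries lay between the WT lines, and the log2 fold change against their mean was 0.06 (SE 0.072, adjusted p = 0.512 by limma). In FPKM m9327 was at 79.3% of the WT mean, so the sign differed between the log2 and FPKM scales. It had 2 and 3 reads in m4447, where the rule required a low value, at a ratio of WT to m4447 of 401 with a 95% counting interval from 172 to 1237.

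The reduction in m9327 was more frequent among members with a high mean level, in splits by level that were chosen after the data were seen. Of the 20 members with the highest mean over the 6 libraries, 4.78 FPKM or more, 18 were lower in m9327 and 1 was higher, and the median log2 fold change was -1.74. Of the expressed genes in the same range of means, 33% were lower and 25.7% higher. Of the 21 members with a lower mean, 8 were lower and 5 higher, with a median of -0.22, and of the expressed genes in that range 25.6% were lower and 22.6% higher, so the share of higher calls was close to the background there. The mean contains the compared libraries, and the rule holds every m9327 value at 1 FPKM or more, so a member at a low WT level had little room to be lower in m9327. Among the 21 members between the quartiles of the level, 2.19 to 8.11 FPKM, 12 were lower in m9327 and 2 higher, where 28.7% and 26% of 2870 expressed genes of that level were. The median log2 fold change was -0.82 for these members and -0.02 for the genes of that level.

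The members also differed between the 2 WT lines, a comparison the rule did not use beyond the minimum of 1 FPKM. By limma, 25 of the 41 members (61.0%) differed between m8905 and m5567 at an adjusted p under 0.05, where 26.9% of all genes tested and 25.9% of the expressed genes did. They went in both directions. In m8905, 13 members were higher, against 13.5% of all genes tested, and 12 were lower, against 13.4%. The median log2 fold change was 0.08, beside -0.01 over all genes tested, and without the first m8905 library it was -0.11, so no direction between the WT lines can be given for the members as a set. The median size of the difference regardless of sign was 0.68, compared with 0.19 for the expressed genes. Among members between the quartiles of the level, 14 of 21 differed, where 25.7% of expressed genes of that level did, and the median size was 0.87 for the members against 0.21.

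By line means in FPKM, 17 members (41.5%) differed 2-fold or more between the WT lines, as did 4.71% of the expressed genes. Of these, 11 were higher in m5567, by up to 5.15-fold, and 6 were higher in m8905, by up to 3.47-fold. The libraries of the WT lines did not overlap for 35 members, a pattern that 69.9% of expressed genes showed. The members thus varied among the 3 lines that expressed them, in addition to the near absence in m4447 that defined them. Duplicates differed by a median of 0.13 (m5567), 0.16 (m8905) and 0.15 (m9327) on the log2 scale for the members, and by 0.08, 0.09 and 0.12 for the expressed genes. Spread between duplicates was thus somewhat larger for the members, and smaller than the median difference between lines. The members had a lower median level than the expressed genes, 3.65 against 15.4 FPKM, and this spread was not compared at equal level.

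The highest line mean was in m5567 for 17 members, in m8905 for 17 and in m9327 for 7 (17.1%), where the expressed genes were highest in these lines in 33.4%, 31.1% and 35.5% of cases. The lowest mean among the 3 lines was in m9327 for 23 members (56.1%), in m8905 for 10 and in m5567 for 8, and the expressed genes were lowest in these lines in 44.3%, 30.5% and 25.2% of cases. The most frequent order, m8905 above m5567 above m9327, held for 14 members (34.1%), and for 22.0% of the expressed genes.

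Positions in the genome were not analysed here. The identifiers were used to ask whether members were listed next to each other, and the files do not say whether their numbers follow the genome. Except for the pair at consecutive numbers and another pair 2 numbers apart, members were at least 29 numbers apart, with a median gap of 477. Within 5 numbers on either side of a member there were 150 expressed genes that were not members. Of these, 141 (94%) were at 1 FPKM or more in both m4447 libraries, compared with 96.3% of all expressed genes. Here the values for all expressed genes include the members, which the 150 genes do not. Their median difference between m4447 and the other 6 libraries, with all distances pooled, was -0.12 on the log2(FPKM + 1) scale, against -0.11 for all expressed genes. The difference was not the same at each distance when split after the data were seen. At 1 number from a member there were 27 genes with a median of -0.39, of which 19 (70.4%) were below 0, compared with 59.0% of all expressed genes, and 24 (88.9%) were at 1 FPKM or more in both m4447 libraries. The medians at 2, 3, 4 and 5 numbers were -0.20, -0.18, 0.05 and 0.04. Of the 27 genes at 1 number, 5 (18.5%) were lower in m4447 by 1 or more on this scale. That share was 8%, 6.06%, 9.09% and 8.33% at 2, 3, 4 and 5 numbers, and 9.23% over all expressed genes. Genes close in number to a member were thus mostly expressed in m4447. Their pooled median was close to that of all expressed genes, and the lower values at the nearest numbers were not tested.

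**Figure D4:**
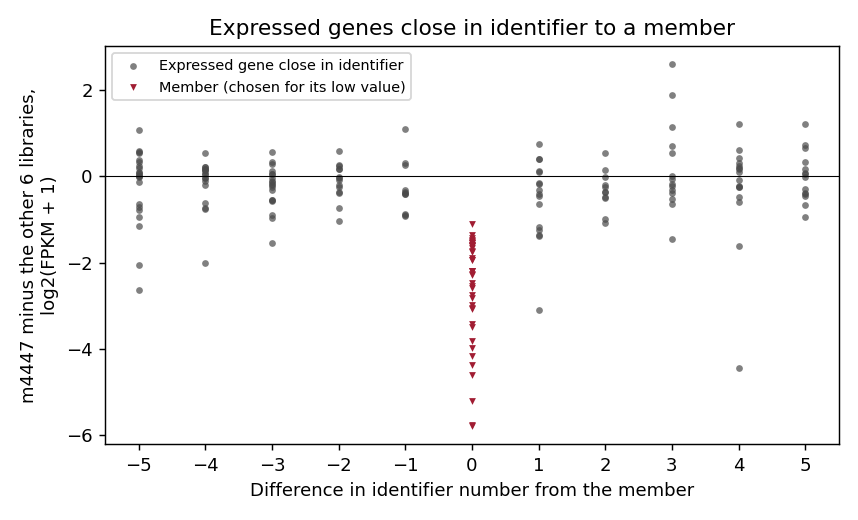
Difference between the mean of the m4447 libraries and the median of the other 6, in log2(FPKM + 1), for the members (triangles at 0) and for expressed genes up to 5 identifier numbers away (points). The points have a median of -0.12 over all distances and of -0.39 at distance 1, where most lie below 0. The members lie low because they were chosen for it.

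With 2 duplicates per line, p-values measure the spread between cultures of a line and not between tumors, and m4447 is a single line. The other LoxP/LoxP line, m9327, expressed all 41 members, so their near absence was not shared by both lines of that genotype, as the rule required. At this depth a member with 0 reads in m4447 was not detectable, which is not the same as absent.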

How the data were processed

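The deposited table gave FPKM per gene for 8 RNA-seq libraries. Per the submitters' processing notes the authors used Bowtie2 2.2.3, TopHat2 2.0.12, HTSeq 0.6.1 and DESeq, and the deposited FPKM values were used without rescaling. The strand setting and annotation release are not given in the sources used here. Reads, gene lengths and library totals were solved from the FPKM values for 22673 of 22673 genes above 0. Because the deposited unit is FPKM, the count test DESeq was not run, and voom on the solved reads was an alternative. Genes averaging 0.5 FPKM or above were fitted as log2(FPKM + 1) with limma 3.58.1 in R 4.3.3, with 1 mean per line, over the 6 libraries of m5567, m8905 and m9327. The m4447 libraries were left out because they chose the members. P-values were adjusted by Benjamini-Hochberg over 12660 genes, with a threshold of 0.05 and 3 residual degrees of freedom. Counting intervals are exact binomial at 95%. The members and lists were chosen with earlier results of these data known. Identifiers printed are those with the 2 largest and 2 smallest log2 fold changes in m9327 among members past the threshold. Python 3.11.15 was used for the other steps.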

Additional observations from a re-analysis of the deposited data

Results flagged for a closer look

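MGP_FVBNJ_G0030602 and MGP_FVBNJ_G0018829 are listed because both m9327 libraries were above and both m4447 libraries below all 4 WT libraries, with log2 fold changes of 2.07 and 1.07 in m9327 against the WT lines. Only the 4 genes given by identifier were checked for this list. Among all 41 members, 6 had both m9327 libraries above all 4 WT libraries. The rule put m4447 below the WT libraries for all 41 members, and the 2 genes listed were named for the highest fold changes in m9327. The pattern thus follows from their selection, and the difference between m9327 and m4447 was not tested.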

How the results depend on the processing

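The counts of members called in m9327 against the WT lines were within 1.5 times the reported ones under all alternatives but 1. Line means called 0 higher and 0 lower there, with 1 value per line. The counts in m8905 against m5567 were within 1.5 times under all alternatives run, which did not include line means. The other counts of members called, against each WT line or by level, had no alternatives. Leaving out each library of the fit in turn gave 5 to 7 members higher and 24 to 26 lower in m9327, and 11 to 13 higher and 10 to 13 lower in m8905. A lone library was then assumed to vary like the others. The median log2 fold change in m9327 was -0.74 with a pseudocount of 0.1 FPKM, -0.78 by voom and -0.85 with a filter at a mean of 2 FPKM, which left 36 members. Chosen after seeing the data, it was -0.68 over the 38 members with 10 or more reads in each of the 6 libraries, and -1.03 against m5567 alone. Also chosen then, a window of 10 identifier numbers held 311 expressed genes, 96.1% of them at 1 FPKM or more in both m4447 libraries, and a window of 1 held 27, of which 88.9% were. Without 1 library the median log2 fold change in m9327 ranged from -0.61 to -0.48, and the median in m8905 against m5567 from -0.11 to 0.15.

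The number of members followed the limits. It was 21 with m4447 under 0.05 FPKM, 65 under 0.2, 122 under 0.5 and 10 at 0, and 79, 16 and 7 with the other libraries at 0.5, 2 and 5 FPKM or more. Rescaling by the median ratio gave 36 and leaving out 1 library 42 to 52. The named genes were past the threshold in 60 of 64 alternatives, and the other 4 were line means. Duplicate numbers did not pair the libraries of the fit, with correlations of 0.061, 0.001 and 0.019 between its lines. Those of m4447, which was not in the fit, were -0.063 with m5567, -0.18 with m8905 and 0.014 with m9327. With the duplicate number as a replicate block, 5 members were higher and 26 lower in m9327, and 13 higher and 13 lower in m8905, with unchanged medians of -0.53 and 0.08. Depth limits members of few reads.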
